A study of Mus musculus with 12 samples.

Results

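The comparison described here set a p53-null line of mouse fibroblasts against a wild-type (WT) line when neither was starved. Its members were the 6 samples, of 12 in the series, whose labels give complete medium: 3 of the WT line and 3 of the p53-null line, with a glutamine-free group of 3 samples for each line making up the rest. The WT samples were 3T3 mouse embryonic fibroblasts (cells that became immortal through serial passage) with wild-type p53, and the p53-null samples were the same kind of cell labelled p53 -/-. All 6 had been kept for 18 h in the culture medium DMEM containing 25 mM glucose and 2 mM L-glutamine. The labels name neither the mutant allele nor the mouse strain, and they give 1 line per genotype, so each difference below is a difference between these 2 lines, and the p53 genotype cannot be told apart from anything else in which the lines differ. No label calls the 3 samples of a line separate cultures, and the p-values then reflect the spread among these libraries alone, which may be technical.

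The Trp53 gene encodes p53, which binds paired decamers in the promoters and introns of its targets and switches on transcription of genes for growth arrest, apoptosis, DNA repair and metabolism when cells are damaged or starved. Mdm2, itself a p53 target, marks the protein for degradation. Fibroblasts become immortal in the 3T3 passage scheme mostly through loss of p53 or of Arf, the product of Cdkn2a that shields p53 from Mdm2. The study as a whole concerns how p53 helps cells to live without glutamine through Slc7a3, a carrier of arginine, and the complete-medium samples are its unstressed baseline.

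Levels were given as RPKM, a read count divided by transcript length and library size, so that genes can be set beside each other. RPKM summed to 290973 to 314793 per library, and the steps between low values put the depth at 39.1 to 46.8 M reads. Pairs of libraries were compared on 759 to 816 well-covered single-transcript genes, with read numbers inferred from that estimated depth. Over the 6 pairs within a line the variance, judged from the median gene, was 1.19 to 1.34 times that of counting alone. Between the lines it was 181 to 205 times. Differences are p53-null minus WT on the scale of log2(RPKM + 1), which understates differences of genes near or under 1 RPKM, and they carry the standard error (SE) and the Benjamini-Hochberg adjusted p of a limma fit across all tested genes. "Higher" and "lower" are used of genes called at an adjusted p under 0.05. In bulk samples, fewer cells of a type and less RNA per cell cannot be told apart.

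The lines differed at nearly every gene that could be tested. A level of 1 RPKM or more in 3 or more of the 6 samples was met by 11188 genes, of which 10240 were called (91.5%), 5438 of them higher in the p53-null line (48.6%) and 4802 lower (42.9%). A difference of at least 2-fold was called for 2290 genes (20.5%), 1045 higher (9.34%) and 1245 lower (11.1%). Samples of the lines did not overlap for 10261 genes (91.7%). The median difference was 0.05, the median size of a difference was 0.49, and the median SE was 0.030. With so many calls a call says little about a gene, and the counts below are therefore read against these shares and against the count of 2-fold differences.

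Trp53 itself was lower in level, with a difference of -0.998 on the log2 scale, in the p53-null line. The gene lies on the plus strand at chr11:69580359-69591873 (GRCm38). It stood at 58.7, 57.8 and 59.0 RPKM in the WT samples and at 27.9, 29.0 and 29.6 RPKM in the p53-null samples. The groups were far apart relative to their spread (SE 0.022, adjusted p = 3.68e-10), while an exact permutation test (two-sided, 3 libraries against 3) gave a p of 0.1, the smallest p it can give. The p53-null line thus kept close to 29 RPKM of Trp53 reads. The table has 1 value for the whole gene and the labels do not give the allele, so reads from exons left in a deleted allele would be counted, and this level does not check the genotype label.

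Slc7a3, the arginine carrier named in the title of the study, was barely transcribed in either line. It stood at 0.200, 0.251 and 0.334 RPKM in WT and at 0.904, 1.17 and 1.10 RPKM in the p53-null samples, so all 3 p53-null samples were above all 3 WT samples. Only 2 samples reached 1 RPKM, so the gene failed the filter and was not among the tested genes. The difference was 0.71, with an exact two-sided permutation p of 0.1, the smallest that 3 against 3 can give. Without the filter on low values the limma fit gave 0.71 ± 0.063 SE with an adjusted p of 1.19e-04. It grew to 1.03 with a pseudocount of 0.5 and to 1.69 with 0.1, as the scale bears on genes this low.

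Genes known as p53 targets did not stand lower as groups in the p53-null line. Among 13 tested members of the list of p53 targets that act in cell cycle arrest, 7 were lower and 5 higher, with 1 lower and 0 higher by at least 2-fold, and their median was -0.15 beside 0.05 for all genes (0.05 when each gene was set against the median of its chromosome). Among 14 tested p53 targets of apoptosis, 7 were higher and 5 lower, 3 in each direction by at least 2-fold, with a median of 0.11. Among 18 tested p53 targets of DNA repair and metabolism, 11 were higher and 6 lower, with a median of 0.39. With a filter of 5 RPKM the 3 medians were 0.05, -0.01 and -0.01.

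Cdkn1a, which encodes the p21 inhibitor of cyclin-dependent kinases and is the best known p53 target of arrest, was low in both lines. It stood at 2.29, 2.63 and 2.94 RPKM in WT and at 1.19, 0.712 and 1.02 RPKM in the p53-null samples. The lines did not overlap, and the difference was -0.88 ± 0.096 SE (adjusted p = 2.05e-05). Fas, the death receptor, had the largest difference of the p53 targets, with 25.5, 24.4 and 24.4 RPKM in WT against 1.36, 1.37 and 1.02 RPKM. Its difference was -3.52 ± 0.060 SE (adjusted p = 7.02e-11). Sesn1, an amino acid sensor that restrains mTORC1, fell from 17.5, 17.3 and 16.8 RPKM in WT to 4.17, 3.99 and 3.96 RPKM in the p53-null samples. Dram1, a lysosomal regulator of autophagy, stood at 8.09 ± 0.168 RPKM (SD, n = 3) in WT and at 0.262 ± 0.0440 RPKM in the p53-null line. Ddit4, an inhibitor of mTORC1, stood at 24.2 RPKM and 3.19 RPKM, and Eda2r, a receptor of the TNF family, at 1.48 RPKM and 0.00680 RPKM.

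Other targets stood higher in the p53-null line. Bax, the pore-forming protein of apoptosis, was at 22.7, 21.8 and 22.9 RPKM in WT and at 53.5, 52.7 and 52.3 RPKM in the p53-null samples, a difference of 1.202 ± 0.021 SE (adjusted p = 8.66e-11). Aen, an exonuclease, stood at 2.69 RPKM in WT and 11.7 RPKM in the p53-null line. Tigar, which lowers the flux through glycolysis, stood at 1.18 RPKM and 5.72 RPKM, and Gls2, the liver-type glutaminase, at 0.514 RPKM and 4.61 RPKM. Pltp, which moves phospholipids between lipoproteins, stood at 0.517 RPKM in WT and 10.9 RPKM in the p53-null line. Perp, a membrane protein of cell junctions, was at 0.135 RPKM in WT and 2.16 RPKM in the p53-null line. Mdm2 was among them, with 10.05, 9.49 and 9.82 RPKM in WT against 15.6, 15.9 and 16.3 RPKM (0.65 ± 0.027 SE, adjusted p = 1.97e-08).

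Of 11 tested regulators of p53, 6 were higher and 3 lower. Mdm4, the partner of Mdm2, stood at 11.7 RPKM in WT and 17.0 RPKM in the p53-null line, and the checkpoint kinase Chek2 at 7.58 RPKM and 13.6 RPKM. Hipk2, a kinase that phosphorylates p53, was lower, with 21.0 RPKM against 12.3 RPKM. Trp63, a relative of p53 with a role in epithelia, was at 2.80 RPKM in WT and 0.0389 RPKM in the p53-null line.

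**Figure D1:**
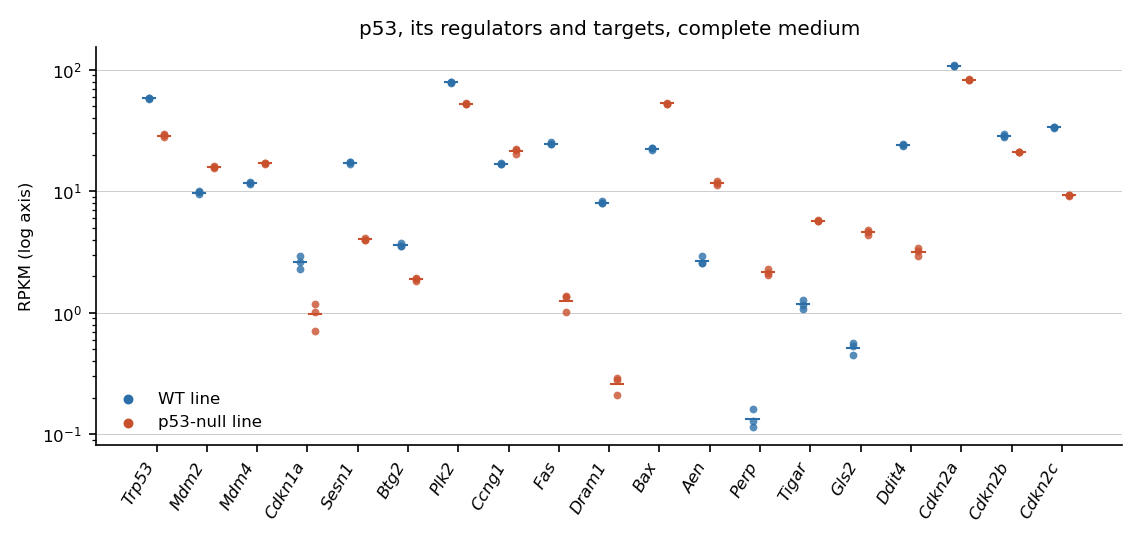
Levels in RPKM (log axis) of p53, its regulators, its targets and the Ink4 genes in the 3 WT (blue) and 3 p53-null (red) samples in complete medium; points are samples and bars are means. Sesn1, Fas, Dram1 and Ddit4 stand lower in the p53-null line, Bax, Aen, Perp, Tigar and Gls2 stand higher, and Trp53 keeps 28.8 RPKM.

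Promoters of a target that was lower and of one that was higher are shown because both carry the p53 decamer. The decamer was searched for on both strands in RefSeq promoters (GRCm38.p6) from 250 bases before to 50 after the start of transcription, which 8665 tested genes had. It was found for 686 of these genes (7.92%), for 6 of 12 targets of arrest, 4 of 11 of apoptosis and 2 of 14 of repair and metabolism. Capitals mark the decamers in the 250 bases before the start. The Cdkn1a stretch is chr17:29090729-29090978 on the plus strand and the Bax stretch is chr7:45466899-45467148 on the minus strand. Cdkn1a had 2 promoter windows, and the stretch printed is from the first found with a decamer before its start. A gene counted as carrying the motif if any of its windows held it.
Cdkn1a: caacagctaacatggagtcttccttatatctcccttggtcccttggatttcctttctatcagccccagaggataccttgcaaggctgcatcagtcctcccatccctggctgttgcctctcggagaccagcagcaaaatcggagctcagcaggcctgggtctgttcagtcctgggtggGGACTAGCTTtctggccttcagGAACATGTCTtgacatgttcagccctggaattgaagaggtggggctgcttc
Bax: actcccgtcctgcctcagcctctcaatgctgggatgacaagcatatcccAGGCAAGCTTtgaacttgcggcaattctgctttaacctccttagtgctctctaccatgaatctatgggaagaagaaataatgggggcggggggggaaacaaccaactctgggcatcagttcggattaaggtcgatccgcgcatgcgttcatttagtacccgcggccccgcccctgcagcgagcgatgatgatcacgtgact
Of the arrest targets with the motif, Cdkn1a, Sesn1 and Ckap2 were lower, Ccng1 and Gtse1 were higher, and Gadd45a was not called. A match describes letters in the window and not a bound site.

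Inhibitors of the cell cycle at the Ink4 and Kip loci were lower in the p53-null line, 2 of them only before chromosome medians were subtracted. Of 5 tested members 5 were lower, with a median of -0.42. Cdkn2a, which encodes p16 and Arf, stood at 109, 107 and 108 RPKM in WT and at 82.0, 82.3 and 84.4 RPKM in the p53-null samples, a difference of -0.38 ± 0.015 SE (adjusted p = 1.70e-08). Its neighbour Cdkn2b, which encodes p15, stood at 28.7 ± 0.677 RPKM and 21.2 ± 0.0138 RPKM. Both lie on chromosome 4, whose genes were lower by 0.57 at the median, and against that median the signs turned to 0.19 for Cdkn2a and 0.15 for Cdkn2b. Cdkn2c, which encodes p18 and lies on the same chromosome, differed most, with 33.8, 33.5 and 33.8 RPKM in WT against 9.14, 9.33 and 9.28 RPKM.

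Among cyclins and E2F genes of G1, 10 of 19 tested members were higher and 6 lower. Ccnd1, the cyclin D1 that drives entry into the cycle, was at 38.3, 38.2 and 36.9 RPKM in WT and at 90.2, 93.4 and 91.6 RPKM in the p53-null samples. Ccne1 (cyclin E1) stood at 6.75 RPKM and 17.3 RPKM, and Ccnd2 at 29.6 RPKM and 64.7 RPKM. Rb1, which restrains E2F, was lower, with 9.30 RPKM in WT and 4.10 RPKM in the p53-null line.

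Replication genes were split, with 16 of 33 tested members higher and 16 lower. Their median was 0.01 beside 0.05 for all genes, and -0.02 beside 0.02 after centring each library on its median. Pcna, the sliding clamp of the replication fork, stood at 144 RPKM in WT and 366 RPKM in the p53-null line, and the helicase subunit Mcm3 at 98.7 RPKM and 51.1 RPKM. Genes of mitosis were mostly lower, 22 of 30 tested against 7 higher, with 5 lower and 0 higher by at least 2-fold and a median of -0.36. Cdc20, the activator of the anaphase-promoting complex, fell from 88.7, 87.6 and 85.2 RPKM in WT to 26.8, 26.05 and 26.2 RPKM. Ccnb2 (cyclin B2) stood at 66.8 RPKM and 26.5 RPKM, and Cdca8, a subunit of the chromosomal passenger complex, at 69.2 RPKM and 26.3 RPKM. Genes of DNA damage signalling and repair were mostly higher, 18 of 23 tested against 4 lower, but only 1 by at least 2-fold, the scaffold Xrcc1 with 13.2 RPKM in WT and 28.3 RPKM in the p53-null line.

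The lines expressed different sets of identity genes. Fibroblast markers summed to 4168 to 4188 RPKM in the WT samples and to 2521 to 2559 RPKM in the p53-null samples, and 12 of the 15 markers found reached 1 RPKM in all samples of each line. Vim alone made up most of the p53-null sum. Of 12 tested fibroblast markers 9 were lower and 3 higher, with a median of -1.26. S100a4, a calcium-binding protein of motile fibroblasts, stood at 935, 961 and 938 RPKM in WT and at 19.9, 20.7 and 17.4 RPKM in the p53-null samples (-5.54 ± 0.053 SE, adjusted p = 2.75e-12). Prrx1, a homeobox gene of limb and face mesenchyme, stood at 33.9 RPKM and 3.61 RPKM. Vim, the intermediate filament of mesenchyme, went the other way, with 763, 754 and 763 RPKM in WT against 1718, 1737 and 1735 RPKM. The markers Thy1, Lum and Fap were under 0.1 RPKM in all 3 WT samples, and Lum and Fap also in all 3 p53-null samples.

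The p53-null line carried genes of mesothelium, the lining of body cavities. All 5 tested mesothelial markers were higher, all by at least 2-fold, and the 6 found summed to 2.39 to 2.47 RPKM in WT and to 181 to 183 RPKM in the p53-null samples. Only 1 of the 6 reached 1 RPKM in all 3 WT samples, against 5 in all 3 p53-null samples. Most of the tested markers thus passed the filter only through the line where they were high, and the filter largely set their shared direction. Msln, which encodes mesothelin, stood at 2.39, 2.26 and 2.25 RPKM in WT and at 148, 149.7 and 149.6 RPKM in the p53-null samples (5.51 ± 0.021 SE, adjusted p = 3.73e-14). Wt1, the transcription factor of mesothelium and kidney, was listed at 0 in all 3 WT samples and stood at 7.71, 7.49 and 7.77 RPKM in the p53-null samples. Krt18, a keratin of simple epithelia, was likewise listed at 0 in WT and stood at 60.3, 59.4 and 59.1 RPKM, and Krt19 stood at 0.110 RPKM and 17.5 RPKM. The epithelial adhesion genes Epcam and Cdh1 stayed under 0.1 RPKM on average in both lines, and 7 of 14 epithelial markers were under 0.1 RPKM in every p53-null sample.

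Markers of other tissues were also split between the lines. Neural and glial markers summed to 64.1 to 65.0 RPKM in WT and to 20.5 to 21.2 RPKM in the p53-null line. Stmn2, a tubulin-binding protein of neurons, stood at 23.6, 22.6 and 24.3 RPKM in WT and was listed at 0 in all p53-null samples, as was Sox2, which stood at 6.16, 5.83 and 6.33 RPKM in WT. Markers of cartilage and bone summed to 2341 to 2364 RPKM in WT, nearly all of it Spp1 (osteopontin) at 2316 ± 11.4 RPKM, and to 119 to 124 RPKM in the p53-null line. Of 4 tested adipocyte markers 3 were higher in the p53-null line and 1 lower. Fabp4 stood at 22.7 RPKM in WT and 0.0969 RPKM in the p53-null line, and Lpl at 0.0140 RPKM and 18.5 RPKM. Of 4 tested pericyte markers 3 were higher and 1 lower, all by at least 2-fold. Cspg4 stood at 30.3 RPKM in WT and 0.116 RPKM in the p53-null line, and Mcam at 0.662 RPKM and 8.18 RPKM. Endothelial markers summed to at most 3.27 RPKM in WT and 9.97 RPKM in the p53-null line, muscle markers to at most 2.33 RPKM and 8.82 RPKM, and markers of blood cells to at most 8.43 RPKM and 9.57 RPKM. The part of these marker genes in the other differences was not tested.

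Hox genes, which record the position along the body axis that a cell came from, differed between the lines in both directions. Of 36 found, 24 passed the filter, 16 of these were higher in the p53-null line and 6 lower, and 12 were higher and 4 lower by at least 2-fold. Hoxb7 was listed at 0 in all 3 WT samples and stood at 13.4, 12.8 and 13.7 RPKM in the p53-null samples. Hoxc6 stood at 0.0320, 0 and 0.0154 RPKM in WT and at 16.3, 16.4 and 16.5 RPKM, and Hoxc8 at 0.00358 RPKM and 10.6 RPKM. Hoxa2 and Hoxa3 went the other way: Hoxa2 stood at 5.95 RPKM in WT and 0.984 RPKM in the p53-null line, and Hoxa3 stood at 9.94 RPKM and 1.79 RPKM.

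Of 38 tested developmental transcription factors outside the Hox clusters, 23 were lower and 13 higher, with 15 and 9 by at least 2-fold. Foxd1, a forkhead gene of kidney stroma, stood at 37.2 RPKM in WT and 0.359 RPKM in the p53-null line, and Pax9, a gene of pharynx and teeth, at 12.9 RPKM and 0.00328 RPKM. Irx1, an Iroquois homeobox gene, stood at 37.4, 36.9 and 35.9 RPKM in WT and was listed at 0 in the p53-null samples. Sox11 stood at 0.000965 RPKM in WT and 9.71 RPKM in the p53-null line, and Gata4, a factor of heart and lateral mesoderm, at 0.0701 RPKM and 8.13 RPKM.

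**Figure D2:**
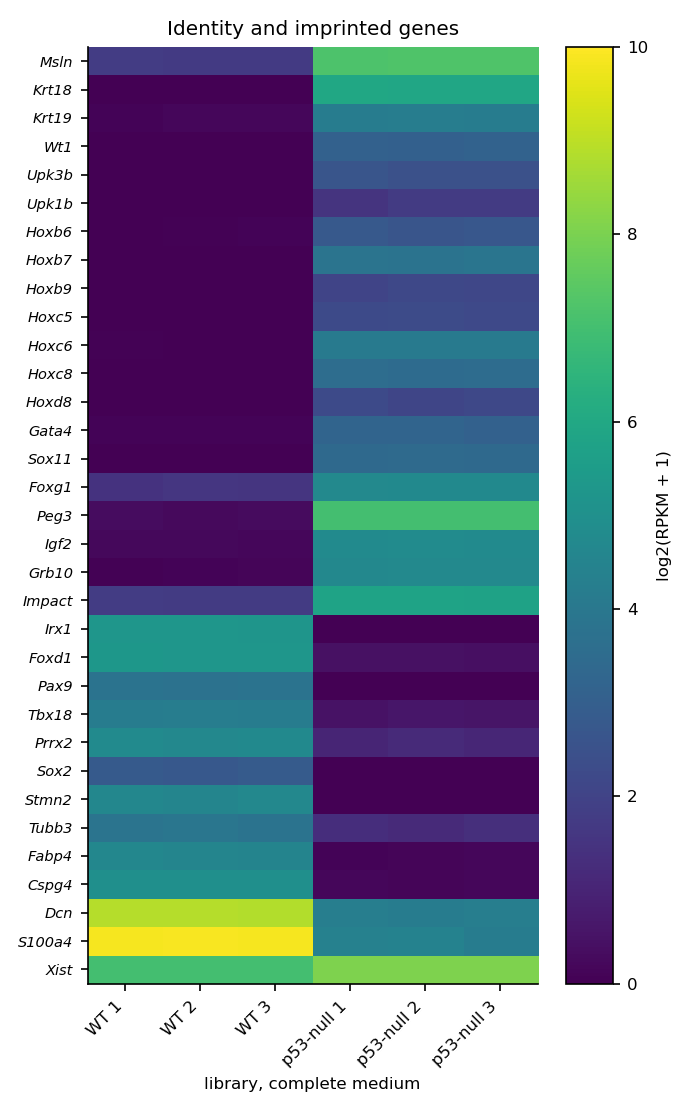
Level of identity and imprinted genes, as log2(RPKM + 1) in colour, for each of the 3 WT and 3 p53-null libraries in complete medium. The genes drawn are a selection that leaves out Hoxa2, Hoxa3 and Igf2r, which were lower in the p53-null line. The mesothelial, keratin, Hoxb, Hoxc and imprinted genes drawn are brighter in the p53-null libraries. Irx1, Foxd1, Pax9, Sox2, Stmn2, Fabp4 and Cspg4 are brighter in the WT libraries. Of all tested members, 6 of 24 Hox genes and 4 of 15 imprinted genes were lower in the p53-null line.

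Imprinted genes, which are transcribed from the allele of 1 parent, included Peg3, first among the named genes in difference upward. Of 15 tested, 10 were higher and 4 lower, with 7 and 2 by at least 2-fold. Peg3, a zinc finger gene read from the paternal allele, stood at 0.256, 0.177 and 0.214 RPKM in WT and at 129, 127 and 128 RPKM in the p53-null samples (6.73 ± 0.027 SE, adjusted p = 4.19e-14). Igf2, the fetal insulin-like growth factor, stood at 0.169, 0.161 and 0.135 RPKM in WT and at 26.5, 27.0 and 26.9 RPKM. Grb10, an adaptor that dampens insulin signalling, stood at 0.0748 RPKM and 24.7 RPKM, and Impact, an inhibitor of the Gcn2 kinase, at 2.38 RPKM and 54.1 RPKM. Igf2r, the receptor that clears Igf2, was lower, with 22.6 RPKM in WT and 12.5 RPKM in the p53-null line.

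Xist, the RNA that coats the inactive X chromosome, was found in both lines, at 129, 129 and 128 RPKM in WT and at 268, 266 and 266 RPKM in the p53-null samples (1.05 ± 0.011 SE, adjusted p = 3.68e-12). Without glutamine the lines did not differ in Xist, at 288.2 RPKM in WT and 288.4 RPKM in the p53-null line (limma over all 12 samples, adjusted p = 0.948). Ddx3y on the Y chromosome averaged 0.00358 RPKM in WT and 0.00171 RPKM in the p53-null line. Eif2s3y was not analysed here.

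The 12 largest differences upward were those of Peg3, Efemp1, Krt18, Msln, Gsta4, Gas6, Renbp, Tspan8, Isyna1, Parm1, Serpinb9b and Igf2. Efemp1, a matrix protein of the fibulin family, stood at 0, 0 and 0.0240 RPKM in WT and at 79.4, 78.2 and 79.4 RPKM in the p53-null samples. Gsta4, a glutathione transferase that clears lipid aldehydes, stood at 2.00 ± 0.105 RPKM and 114 ± 0.684 RPKM. Gas6, a ligand of the Axl and Mertk receptors, stood at 0.117 RPKM and 41.8 RPKM.

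The 12 largest differences downward were those of Enpp2, Cxcl5, Ptx3, Cp, Sod3, Cxcl1, C3, Serpine2, Gstt1, Mmp2, Slc7a2 and S100a4. Enpp2, which encodes autotaxin, the enzyme that makes lysophosphatidic acid, stood at 486, 480.2 and 482 RPKM in WT and at 0.397, 0.320 and 0.366 RPKM in the p53-null samples (-8.47 ± 0.023 SE, adjusted p = 9.91e-15). Ptx3, a soluble pattern receptor of the pentraxin family, stood at 394, 393 and 389.6 RPKM and at 2.04, 1.93 and 2.05 RPKM. Sod3, the superoxide dismutase of the extracellular space, stood at 134 RPKM and 0.525 RPKM.

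Some genes were near absent in 1 line. A gene under 0.1 RPKM in all 3 samples of 1 line and at 5 RPKM or more in all 3 of the other was found 38 times for WT and 54 times for the p53-null line. In the glutamine-free samples of the same lines, 31 of the 38 and 53 of the 54 were again under 0.1 RPKM in the same line. The other line was at 1 RPKM or more in all 3 of its glutamine-free samples for 30 of these 31 and 42 of these 53. For the rest the other line was under 1 RPKM in at least 1 sample, so their absence does not show that the difference was kept. The genes of highest level among those absent in WT were Efemp1, Krt18, Renbp, Tspan8 and Parm1, and among those absent in the p53-null line Cxcl5, Serpine2, Irx1, Steap4 and Nos2.

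The matrix made by fibroblasts was reduced in the p53-null line for most of its genes. Of 17 tested collagen chains 14 were lower, 10 by at least 2-fold, and 3 were higher, 2 by at least 2-fold, with a median of -1.36. Col1a2, a chain of the main fibrillar collagen, stood at 710.1, 713 and 712 RPKM in WT and at 30.0, 28.8 and 29.7 RPKM in the p53-null samples (-4.55 ± 0.016 SE, adjusted p = 2.46e-14). Its partner Col1a1 differed far less, with 240 RPKM in WT and 168 RPKM in the p53-null line. Col6a3 stood at 43.4 RPKM and 1.06 RPKM. The basement membrane chains went the other way: Col4a1 stood at 3.25, 3.19 and 3.26 RPKM in WT and at 52.1, 52.9 and 53.7 RPKM in the p53-null samples, and Col4a2 stood at 2.84 RPKM and 31.2 RPKM.

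Of 13 tested hydroxylases and lysyl oxidases, which modify and cross-link collagen, 8 were lower and 5 higher. Lox, the main cross-linking oxidase, stood at 297 ± 3.48 RPKM in WT and 15.1 ± 0.168 RPKM in the p53-null line, while Loxl2 stood at 0.668 RPKM and 18.5 RPKM. Matrix glycoproteins and proteoglycans had 17 of 24 tested members lower and 7 higher, with a median of -0.87. Dcn (decorin), which decorates collagen fibrils, stood at 478, 473 and 464 RPKM in WT and at 18.3, 17.4 and 18.3 RPKM in the p53-null samples.

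Proteases of the matrix and their inhibitors had 13 of 18 tested members lower and 4 higher. Mmp2, the gelatinase of fibroblasts, stood at 75.5, 75.7 and 76.2 RPKM in WT and at 0.325, 0.361 and 0.389 RPKM. Serpine2, an inhibitor of thrombin and of plasminogen activators, stood at 71.6, 71.7 and 70.1 RPKM in WT and at 0, 0.0208 and 0.0485 RPKM in the p53-null samples. Contractile genes leaned upward, with 9 of 13 tested members higher and 4 lower. Ctgf, a matrix protein induced by YAP, stood at 2.98 RPKM in WT and 23.7 RPKM in the p53-null line, while its relative Cyr61 stood at 117 RPKM and 40.8 RPKM. Tagln was also higher, at 2.63 RPKM and 11.2 RPKM, but 67.9% of its exon length lies under genes read from the opposite strand (Pcsk7 and a predicted gene), and these libraries kept no record of strand.

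Signalling genes differed widely, and their calls had no common direction. Among TGF-beta, BMP and Id genes 12 of 24 tested members were lower and 11 higher. The 2-fold differences of this list leaned downward, with 9 lower and 3 higher. Its median was -0.06 beside 0.05 for all genes, and 0.03 beside 0.15 when libraries were rescaled to one sum. Ltbp2, which binds microfibrils, stood at 22.9 RPKM in WT and 0.397 RPKM in the p53-null line, and Grem1, a BMP antagonist, at 57.3 RPKM and 285 RPKM. Of 14 tested Wnt and Notch genes 6 were higher and 7 lower, with 4 higher and 3 lower by at least 2-fold. Wnt5a, a ligand of the noncanonical pathway, stood at 50.2 RPKM in WT and 2.42 RPKM, and the Notch target Hes1 at 0.544 RPKM and 6.67 RPKM. Of 24 growth factors and receptors 11 were higher and 12 lower, with 5 higher and 7 lower by at least 2-fold. Their median was 0.03 beside 0.05 for all genes, and -0.0068 beside 0.02 after median centring. Fgf10, Hgf and Fgf7, mesenchymal factors that act on epithelia, stood at 13.9, 8.90 and 70.8 RPKM in WT and at 0.0461, 0.0415 and 10.2 RPKM in the p53-null line.

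Of 5 tested insulin-like growth factor binding proteins 3 were higher and 2 lower. Igfbp6, which prefers Igf2, stood at 1.56 RPKM in WT and 21.5 RPKM in the p53-null line. Of 17 tested integrins and adhesion genes 8 were higher and 8 lower, with a median of -0.07. It was 0.02, beside 0.15 for all genes, when libraries were rescaled to one sum. Of the cadherins named here, Cdh11 stood at 24.8 RPKM in WT and 0.311 RPKM in the p53-null line, Cdh13 at 15.4 RPKM and 0.0719 RPKM, and Cdh3 at 0.302 RPKM and 16.5 RPKM. Of 21 immediate early genes 9 were higher and 10 lower. Dusp4, a phosphatase that switches off MAP kinases, stood at 0.781 RPKM in WT and 34.8 RPKM, and Junb, a part of AP-1, at 67.4 RPKM and 9.39 RPKM.

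Genes of inflammation and innate defence were lower in the p53-null line. Of 16 tested chemokines and cytokines 13 were lower, 12 of them by at least 2-fold, and 2 were higher, with a median of -2.13. Cxcl5, which draws neutrophils, stood at 207, 194 and 193 RPKM in WT and at 0.0717, 0.0515 and 0.0602 RPKM in the p53-null samples (-7.55 ± 0.030 SE, adjusted p = 4.13e-14). Cxcl1, another neutrophil chemokine, stood at 171, 172 and 169.9 RPKM in WT and at 1.001, 0.877 and 1.18 RPKM. Ccl5, which draws T cells, stood at 72.1 ± 3.03 RPKM and 0.683 ± 0.0927 RPKM. Cxcl12, the ligand of Cxcr4, was higher, with 62.2 RPKM in WT and 112 RPKM in the p53-null line, and Ccl2 stood at 13.05 RPKM and 13.8 RPKM and was not called.

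Complement and acute phase genes had the lowest median of the pathway lists, -2.87, with 8 of 10 tested members lower and 2 higher. C3, on which all complement pathways converge, stood at 120.0, 120.4 and 120.3 RPKM in WT and at 0.545, 0.610 and 0.572 RPKM in the p53-null samples. Cp (ceruloplasmin, a copper-carrying ferroxidase) stood at 225 RPKM and 1.27 RPKM, and Lcn2, which withholds iron from bacteria, at 118 RPKM and 1.599 RPKM.

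Interferon-stimulated genes had 19 of 22 tested members lower, 12 by at least 2-fold, and 3 higher, 1 by at least 2-fold, with a median of -1.04. Ifit1, an RNA-binding effector, stood at 8.95, 8.86 and 9.50 RPKM in WT and at 0.387, 0.299 and 0.368 RPKM in the p53-null samples (-2.90 ± 0.041 SE, adjusted p = 2.32e-11). Ddx58, the RNA sensor RIG-I, stood at 19.8 RPKM in WT and 2.39 RPKM in the p53-null line. Of 11 tested genes of antigen presentation 8 were lower, 6 of them by at least 2-fold, and 2 were higher. H2-K1, a class I heavy chain, stood at 33.0, 33.7 and 32.9 RPKM in WT and at 2.71, 3.00 and 2.82 RPKM, and H2-D1 at 68.5 RPKM and 7.68 RPKM. B2m, the light chain that pairs with them, stood at 276 ± 7.45 RPKM and 287 ± 3.88 RPKM. Class I heavy chains are near-identical copies whose reads the counting could split, so their single values are uncertain.

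Promoters of a chemokine and of an interferon-stimulated gene are shown because motifs of the factors that induce these groups were common in them. The letters GGGAANNNCC, a form of the NF-kappaB site, were in the promoters of 4 of 9 chemokines and cytokines and of 8.16% of all tested genes. The letters GAAANNGAAA, a form of the interferon-stimulated response element, were in 9 of 18 interferon-stimulated genes, 4 of 10 genes of antigen presentation and 3.47% of all tested genes. Both strands were searched, and matches of different motifs were counted separately, so they may overlap. Capitals mark the matches in the 250 bases before the start, on the plus strand at chr5:90890995-90891244 for Cxcl1 and at chr19:34640639-34640888 for Ifit1.
Cxcl1: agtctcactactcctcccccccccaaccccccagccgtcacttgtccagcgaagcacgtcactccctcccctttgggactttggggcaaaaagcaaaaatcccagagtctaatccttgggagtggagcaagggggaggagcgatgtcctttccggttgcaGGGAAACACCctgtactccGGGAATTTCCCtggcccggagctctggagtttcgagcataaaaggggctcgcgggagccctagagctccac
Ifit1: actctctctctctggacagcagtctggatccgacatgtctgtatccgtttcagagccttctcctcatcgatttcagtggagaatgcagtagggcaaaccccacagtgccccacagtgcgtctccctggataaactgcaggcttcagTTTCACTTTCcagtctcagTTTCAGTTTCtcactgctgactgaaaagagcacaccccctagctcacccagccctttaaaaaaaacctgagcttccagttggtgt

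Genes of the integrated stress response were higher in the p53-null line although both lines had glutamine. This response runs through the kinases of eIF2alpha and the factor Atf4 and supplies cells with amino acids and the means to make them. Of 31 tested members 25 were higher, 9 by at least 2-fold, and 6 were lower, 4 by at least 2-fold, with a median of 0.79. Trib3, a pseudokinase induced by Atf4 and Chop, stood at 4.63, 4.11 and 5.34 RPKM in WT and at 44.97, 45.7 and 44.5 RPKM in the p53-null samples (3.02 ± 0.066 SE, adjusted p = 3.27e-10). Chac1, which degrades glutathione, stood at 6.01, 5.88 and 5.44 RPKM in WT and at 22.9, 23.3 and 22.9 RPKM. Asns, which makes asparagine from glutamine and aspartate, stood at 77.6 ± 0.454 RPKM and 175 ± 1.02 RPKM. Atf4 itself stood at 119 RPKM in WT and 206 RPKM in the p53-null line, and Ddit3, which encodes Chop, at 23.8 RPKM and 42.1 RPKM. Lower members were Ddit4, Herpud1, Cebpb, Cth, Nupr1 and Slc7a11.

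A promoter of this group is shown with the element that Atf4 dimers bind. The letters TGATGNAA, a form of that element, were in 8 of 26 promoters of the list and in 2.48% of those of all tested genes. The match in Chac1, in capitals, is on the strand opposite to the gene, and the 250 bases are the plus strand of chr2:119350992-119351241.
Chac1: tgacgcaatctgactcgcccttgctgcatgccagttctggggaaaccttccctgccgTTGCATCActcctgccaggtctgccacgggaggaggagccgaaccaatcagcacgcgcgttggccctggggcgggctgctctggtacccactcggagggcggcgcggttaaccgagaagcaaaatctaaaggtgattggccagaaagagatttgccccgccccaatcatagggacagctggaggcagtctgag

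Serine and one-carbon enzymes, many of which the same response induces, had 13 of 17 tested members higher and 4 lower, with a median of 0.64. Phgdh, Psat1, Psph, Shmt2, Mthfd2 and Cth are in both lists, so the counts of the lists are not separate. Psph, the last enzyme of serine synthesis, stood at 13.6 ± 0.363 RPKM in WT and 60.7 ± 1.2 RPKM in the p53-null line. Shmt2, the mitochondrial enzyme that takes a carbon from serine, stood at 56.8 ± 0.661 RPKM and 158 ± 0.953 RPKM.

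Of 7 carriers and partners for cationic amino acids found, 3 were tested, of which 1 was higher and 2 lower. Slc7a2 carried most of the transcript in WT, with 129.7, 129 and 128 RPKM, and stood at 1.56, 1.599 and 1.69 RPKM in the p53-null samples (-5.64 ± 0.022 SE, adjusted p = 4.13e-14). Slc7a1 stood at 12.8 ± 0.0761 RPKM in WT and 25.2 ± 0.272 RPKM in the p53-null line. Slc7a6, which exchanges cationic for neutral amino acids, stood at 32.1 RPKM and 24.2 RPKM and was at 0.03 against the median of chromosome 8. Slc7a3 was the lowest of these 4 carriers in WT and in the p53-null line.

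Neutral and acidic amino acid transporters had 13 of 19 tested members higher and 5 lower. This list shares Slc7a5, Slc7a11, Slc3a2 and Slc38a2 with that of the integrated stress response. Slc38a1, a glutamine carrier, stood at 8.89 RPKM in WT and 47.7 RPKM in the p53-null line, and Slc1a3, a glutamate carrier known from glia, at 22.3 RPKM and 0.0411 RPKM. Enzymes of glutamine, glutamate, proline and arginine were divided, 10 of 23 tested members higher and 12 lower, with a median of -0.09. It was 0.01, beside 0.15 for all genes, when libraries were rescaled to one sum. Nos2, the inducible enzyme that makes nitric oxide from arginine, stood at 31.2, 31.1 and 30.6 RPKM in WT and at 0.00553, 0.0149 and 0.0116 RPKM. Glul, which makes glutamine, stood at 18.97, 18.3 and 17.8 RPKM in WT and at 1.15, 1.29 and 1.21 RPKM. Ass1, which makes the precursor of arginine, stood at 11.3 ± 1.76 RPKM and 0.939 ± 0.559 RPKM.

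Genes of sterol synthesis were lower in the p53-null line nearly throughout. Of 27 tested genes of sterol and fatty acid synthesis 25 were lower, 23 of them by at least 2-fold, and 1 was higher, with a median of -1.68. Hmgcs1, the first committed enzyme of the mevalonate pathway, stood at 160.2, 159 and 156 RPKM in WT and at 21.7, 20.5 and 20.1 RPKM in the p53-null samples (-2.87 ± 0.026 SE, adjusted p = 2.10e-12). Idi1, the isomerase that makes the second isoprenoid unit, stood at 134, 132 and 129.5 RPKM in WT and at 14.6, 14.9 and 14.2 RPKM. Fdps, which joins such units, stood at 207 ± 1.11 RPKM and 30.9 ± 0.668 RPKM. Srebf2, the factor that drives the pathway, stood at 107 RPKM in WT and 28.5 RPKM in the p53-null line, whereas Srebf1 stood at 10.4 RPKM and 11.6 RPKM and the fatty acid synthase Fasn at 56.5 RPKM and 53.7 RPKM.

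The Hmgcs1 promoter is shown as the only one of 19 sterol and fatty acid promoters with the letters TCACNCCAC, a form of the sterol response element that 1.30% of all tested genes carried. The letters CCAAT, to which the cofactor NF-Y binds, were in 17 of these 19 promoters and in 43.8% of all. Capitals mark the sterol element in the 250 bases on the plus strand at chr13:119690101-119690350.
Hmgcs1: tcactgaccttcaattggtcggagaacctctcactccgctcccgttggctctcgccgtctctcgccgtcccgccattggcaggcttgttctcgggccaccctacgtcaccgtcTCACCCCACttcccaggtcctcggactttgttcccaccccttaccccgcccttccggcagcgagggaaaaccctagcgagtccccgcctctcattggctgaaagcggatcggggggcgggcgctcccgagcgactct

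Genes of glycolysis and of the hypoxia response, lists that share 2 members (Slc2a1 and Pdk1), were mostly lower in the p53-null line. Of 25 tested genes of glycolysis and the pentose phosphate pathway 19 were lower, 7 by at least 2-fold. Another 6 were higher, 1 by at least 2-fold, and the median was -0.77. Slc2a1, the main glucose carrier, stood at 37.4 RPKM in WT and 14.002 RPKM in the p53-null line, and Ldha, which makes lactate, at 316 RPKM and 127 RPKM. Ldhb, the subunit that favours the reverse step, was higher, with 12.7 RPKM and 34.7 RPKM. Of 15 tested genes of the hypoxia response 13 were lower and 2 higher. Bnip3, a receptor of mitophagy, stood at 40.6 RPKM in WT and 7.05 RPKM, and Vegfa, the vascular growth factor, went the other way with 22.8 RPKM and 73.6 RPKM. The letters ACGTG, the core that hypoxia-inducible factors bind, were in 9 of 12 promoters of the hypoxia list, in 14 of 25 of the glycolysis list and in 30.1% of all.

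Enzymes of the tricarboxylic acid cycle stood near the middle of all genes, with 14 of 27 tested members higher and 12 lower and a median of 0.05, which was -0.10 against the chromosome medians. Pcx, which makes oxaloacetate from pyruvate, was an exception with 17.3 RPKM in WT and 2.06 RPKM in the p53-null line. Nucleotide synthesis had 12 of 21 tested members higher and 7 lower. Ribosomal proteins had 25 of 36 tested members lower and 11 higher, and 3 were lower by at least 2-fold, Rpl11, Rpl7 and Rpl13. Rpl11, which can bind Mdm2, stood at 1049 ± 10.9 RPKM in WT and 427 ± 1.49 RPKM in the p53-null line. Many ribosomal protein genes have processed copies that could share their reads, so single values are uncertain.

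NRF2 targets and glutathione genes had 15 of 26 tested members lower and 11 higher, with a median of -0.23 that was 0.0016 against the chromosome medians. The glutathione transferases named by the rule went both ways, Gsta1 with 0.0547 ± 0.0334 RPKM in WT and 19.7 ± 3.16 RPKM in the p53-null line, and Gstt1 with 67.1 ± 0.975 RPKM and 0.0919 ± 0.0441 RPKM. Nqo1, a quinone reductase, stood at 31.2 RPKM and 4.95 RPKM. Heat shock and endoplasmic reticulum chaperones had 13 of 23 tested members higher and 7 lower. Hspa8, the constitutive Hsc70, stood at 631 ± 2.59 RPKM in WT and 1654 ± 6.21 RPKM in the p53-null line.

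**Figure D3:**
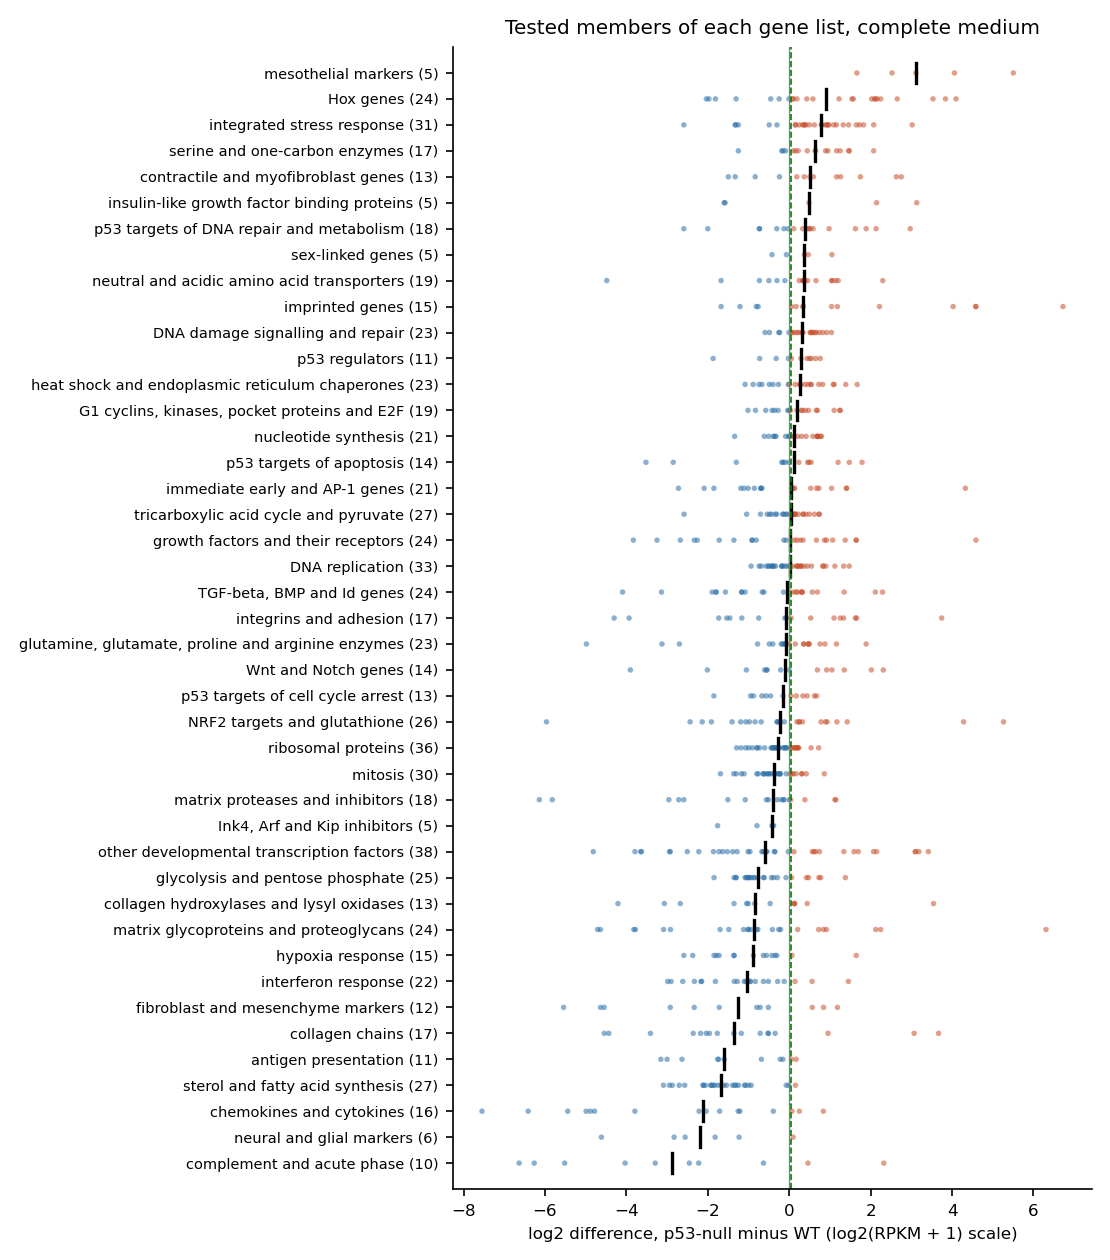
Differences (p53-null minus WT, log2(RPKM + 1) scale) of the tested members of each gene list with at least 5 of them, in complete medium; points are genes (red higher, blue lower), black bars are list medians, and the green dashed line is the median of all tested genes, 0.05. The lowest medians are those of complement, neural marker, chemokine and sterol lists, and the highest are those of mesothelial markers, Hox genes and the integrated stress response.

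Differences followed the chromosomes on which genes lie. Of 10885 tested genes with coordinates, those of chromosome 2 had a median difference of 0.58 and 78.7% were higher, and those of chromosome 18 had 0.51 and 77.0%, beside 48.6% over all genes. Chromosome 4 had a median of -0.57 with 80.0% lower, chromosome 8 had -0.42 with 70.9% lower and chromosome 13 had -0.41 with 72.0% lower, beside 42.9% over all genes. The glutamine-free samples of the same lines gave medians of 0.60, 0.47, -0.50, -0.38 and -0.45 for these 5 chromosomes. All 20 chromosomes were on the same side of the median of all genes in both media, 9 above and 11 below. In 17 of the 20, the proximal and the distal part, split into equal numbers of genes, were on the same side. Copy number was not measured, and its part in these differences was not tested. Trp53 lies on chromosome 11, whose genes had a median of 0.29, and against that median its difference was -1.28.

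**Figure D4:**
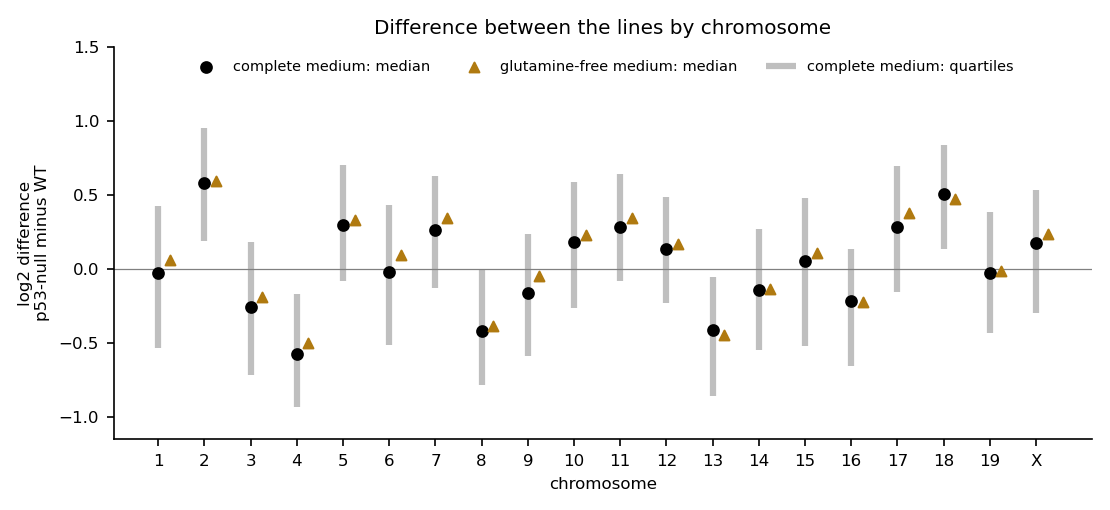
Median log2 difference (p53-null minus WT) of the tested genes of each chromosome in complete medium (black points, with grey bars from the lower to the upper quartile) and in glutamine-free medium (triangles). Chromosomes 2 and 18 stand highest at 0.58 and 0.51, chromosome 4 stands lowest at -0.57, and the medians in the other medium lie close by.

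Of all overlapping stretches of 15 neighbouring tested genes, those with the lowest and the highest median were picked. Lopsided counts in them follow from that choice. In the glutamine-free samples the lowest stretch had a median of -0.79 and the highest one of 0.66. The lowest was chr8:91313525-94395377, where 15 of 15 genes were lower with a median of -1.33. It holds Mmp2, the metallothioneins Mt1 and Mt2, Nudt21 and Herpud1. Mt1 stood at 191 RPKM in WT and 73.6 RPKM in the p53-null line. Mt2 stood at 147 RPKM and 24.9 RPKM, but 73.5% of its exon length is covered by a gene of the opposite strand. The highest stretch was chr11:95865943-96777559, where 14 of 15 genes were higher and 1 lower, with a median of 1.22. It holds most of the Hoxb cluster and its neighbours Igf2bp1, Snf8, Ube2z, Atp5g1 and Snx11, of which Snx11 stood at 1.96 RPKM in WT and 6.16 RPKM in the p53-null line.

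The glutamine-free samples of the same lines served as other libraries of each line. In them 10245 of the same genes were called (91.6%), 5792 higher (51.8%) and 4453 lower (39.8%), and the median difference was 0.11. Of the 2290 genes at least 2-fold apart in complete medium, 1966 were called in the same direction without glutamine (85.9%), 205 in the opposite direction and 119 were not called. The share with the same direction was 89.6% for the 1045 higher genes and 82.7% for the 1245 lower ones, and 1042 of the 2290 were again at least 2-fold apart (45.5%).

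The direction of several lists was not the same in the 2 media. The difference between the lines itself differed between media for 9540 genes (85.3%) by a limma interaction over all 12 samples. Of the mitosis list 22 members were lower and 7 higher in complete medium, whereas without glutamine 3 were lower and 27 higher. The integrated stress response had 25 higher and 6 lower members with glutamine and 3 higher and 28 lower without it. Trib3, at 4.69 RPKM in WT and 45.1 RPKM in the p53-null line with glutamine, stood at 110.1 ± 2.44 RPKM and 95.3 ± 0.552 RPKM without it, an interaction of 3.23 (adjusted p = 4.3e-13). Collagen chains had 3 higher and 14 lower members with glutamine and 10 higher and 6 lower without it. Matrix glycoproteins went from 7 higher and 17 lower to 14 higher and 10 lower, and collagen hydroxylases and lysyl oxidases from 5 higher and 8 lower to 8 higher and 4 lower. Interferon-stimulated genes had 3 higher and 19 lower members with glutamine and 11 higher and 8 lower without it. Serine and one-carbon enzymes went from 13 higher and 4 lower to 5 higher and 11 lower, and neutral and acidic amino acid transporters from 13 higher and 5 lower to 7 higher and 11 lower. Both of these lists share members with the integrated stress response. The Ink4 and Kip inhibitors had 0 higher and 5 lower members with glutamine and 3 higher and 2 lower without it. Sterol and fatty acid synthesis had 25 of 27 tested members lower with glutamine and 21 lower without it, and its median moved from -1.68 to -0.21, and Hmgcs1 stood at 24.997 RPKM and 10.999 RPKM. Cdkn1a stood at 16.1 ± 0.261 RPKM in WT and 1.84 ± 0.164 RPKM in the p53-null line without glutamine. Mesothelial markers were higher in the p53-null line in 5 of 5 tested members in both media. Most of these markers passed the filter only because they were high in that line in complete medium. The glutamine-free count rests on the same genes.

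**Figure D5:**
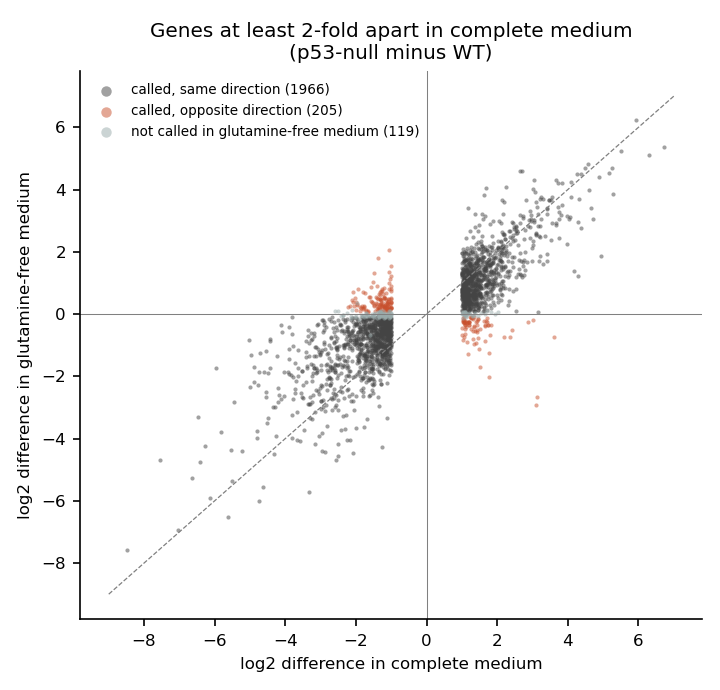
Log2 difference (p53-null minus WT) of the 2290 genes at least 2-fold apart in complete medium (horizontal axis) against that in glutamine-free medium (vertical axis), coloured by the call in the glutamine-free medium; the dashed line marks equal differences. Of the points, 1966 were called in the same direction in the glutamine-free medium, 205 in the opposite direction, and 119 were not called there.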

How the data were processed

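RNA of 12 samples was sequenced from libraries made with the Illumina TruSeq RNA Sample Prep Kit V2 from 0.5 ug of total RNA, per the labels' protocols. The deposited table holds RPKM for 19439 entries in each sample. The submitters' processing notes name CASAVA 1.8, HISAT2 2.0.4, Partek and the build mm10 for the authors' steps; how shared reads were counted, and on which annotation, is not given in the sources used here. Of the entries, 26 carry names turned into dates by a spreadsheet, 4 share a name, and 18799 were matched to GENCODE M21 for coordinates. Only 60.8 to 67.4% of low values under 0.5 RPKM in the 12 libraries were whole reads within 0.05, so counts were not recovered and no count test was run. Precision is given as the SD over 3 samples.

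Values were tested as log2(RPKM + 1) with limma 3.58.1 (trend, R 4.3.3) on the 6 samples, for genes with 1 RPKM or more in at least 3 of them, and the scripts were tested on simulated data. The glutamine-free difference and the interaction came from a fit of all 12 samples on the same genes. Replicate numbers did not pair the samples: deviations of same-numbered WT and p53-null samples had r of 0.01, -0.11 and -0.07. Alternatives were pseudocounts, filters, scalings, the samples fitted, the trend, a replicate block, each replicate left out, and differences against the chromosome median, the last chosen after seeing the data.

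The 51 gene lists (1016 symbols, 992 found, 1 by a synonym) come from textbook pathways and markers, and lists share members. The members of the comparison and the lists were chosen with earlier results of these data known. Named genes were drawn from Trp53, Slc7a3, Cdkn1a, Mdm2, Cdkn2a, Cdkn2b, Xist and Eif2s3y; the 12 largest called differences each way with 5 RPKM or more in the higher line and no overlap, leaving out predicted genes, small RNAs, pseudogenes and date names; up to 4 called members of largest difference per list; up to 5 near-absent genes each way; and up to 6 genes of the 2 stretches. Any other gene given with a value was chosen after its values were seen. Of 210 such rule-named genes with coordinates, 3 have over 25% of exon length under a gene on the other strand: Tagln, Mt2 and Ankrd37. The result of 1 gene chosen by this rule is not reported here.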

Additional observations from a re-analysis of the deposited data

Results flagged for a closer look

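The difference between the lines changed with the medium for 9540 of the tested genes, by the limma interaction over all 12 samples (complete minus glutamine-free, adjusted p under 0.05). For Trp53 the interaction was 0.67 on the log2 scale (adjusted p = 3.2e-10): it stood at 58.5 RPKM in WT and 28.8 RPKM in the p53-null line with glutamine, and at 112 RPKM and 34.6 RPKM without it. For Cdkn1a it was 1.71 (adjusted p = 1.4e-08), since WT stood at 2.62 RPKM with glutamine and 16.1 RPKM without it while the p53-null line stood at 0.973 RPKM and 1.84 RPKM. Cyr61 had an interaction of -2.81, with 117 RPKM in WT and 40.8 RPKM in the p53-null line with glutamine against 23.4 RPKM and 59.7 RPKM without it. Aldh1l2, a mitochondrial folate enzyme, had an interaction of 2.61, with 16.2 RPKM in WT and 46.9 RPKM in the p53-null line with glutamine against 105 RPKM and 47.6 RPKM without it.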

How the results depend on the processing

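No count of called genes in complete medium moved by over 1.5 times under any alternative that was run. Across the alternatives other than leaving out a library, 7987 to 12923 genes were called. At least 2-fold apart were 1650 to 2909 (754 to 1402 higher, 896 to 1507 lower). The filters among these alternatives changed the number of tested genes, to 8580 at 5 RPKM and to 18442 with no filter. Leaving out 1 library at a time gave 10101 to 10137 called genes (5354 to 5405 higher, 4732 to 4749 lower), 2286 to 2299 at least 2-fold apart (1041 to 1058 higher, 1237 to 1248 lower), a Trp53 difference of -1.02 to -0.97 and a Slc7a3 difference of 0.67 to 0.76. In glutamine-free medium it gave 10120 to 10249 called genes, 9410 to 9517 interactions and 1943 to 1966 genes of 2-fold difference with the same direction. With the replicate number as a block, 10241 genes were called in complete medium and 10255 without glutamine; the numbers do not pair the samples, and the block moved no count by over 1.5 times. Slc7a3, which only the permutation test covered, passed the limma threshold at 0.71 when no filter was applied. Against the chromosome median Trp53 moved to -1.28. Chromosome medians minus that of all genes moved with a filter of 5 RPKM to 0.56 for chromosome 2, 0.49 for 18, 0.25 for 11, -0.67 for 4, -0.50 for 8 and -0.51 for 13, and with quantile normalization to -0.43 for 13.

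Signs turned for 14 of 51 list medians and 4 of 212 named genes, and the cause was not tested beyond the genes each filter dropped. With the 5 RPKM filter the medians were 0.047 for p53 arrest targets, -0.013 for apoptosis targets, -0.0101 for repair targets, 0.15 for TGF-beta, -0.072 for growth factors, -0.68 for immediate early genes, 1.86 for blood markers and -0.084 for adipocyte markers. Rescaling to one sum moved the median of all genes from 0.05 to 0.15. It gave 0.035 for TGF-beta, 0.016 for integrins and 0.014 for glutamine enzymes. Quantile normalization gave 0.0096 for glutamine enzymes beside 0.06 for all genes. Median centring gave -0.022 for replication and -0.0068 for growth factors beside 0.02 for all genes. Under these scalings the lists named stayed below the median of all genes, as in the main fit. Leaving out 1 library at a time gave -0.0059 (without the third WT library) to 0.057 for growth factors and -0.0013 (without the third p53-null library) to 0.021 for replication. Against the chromosome median, arrest targets had 0.0501, growth factors -0.19, cationic carriers 0.029, glutamine enzymes 0.18, the tricarboxylic acid cycle -0.10, NRF2 targets 0.0016, Cdkn2a 0.19, Cdkn2b 0.15 and Slc7a6 0.029. Depth limits genes near 1 RPKM, whose differences depend on the pseudocount.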
